A study of Mus musculus with 40 samples.

Results

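Cd81 and Cd151 are 2 of the genes of the tetraspanin family, and their messenger RNA was followed here in mouse embryos that had been exposed in culture to a DNA-alkylating drug. A row of the deposited tables was taken for a gene when its probe had exactly 1 gene symbol. This gave 1 probe for Cd81 and 1 for Cd151, both on array design 2, out of 15279 probes and 6970 named genes on both array designs. The treated embryos received 40 µM 4-hydroperoxycyclophosphamide, a form of cyclophosphamide that needs no activation by the liver, and stayed with the drug for 5 h at 37 °C. The control embryos were cultured at 37 °C without it. The labels used here give no strain, embryonic stage or pooling of embryos. Each of the 40 arrays is a 2-colour array on which treated and control embryos compete, so all of them make a single comparison. Array design 2 holds 20 arrays from 5 replicates. A replicate has 1 slide for each dye orientation, and a slide has 2 readouts, a plain one and one marked B. Nothing in the labels says that replicates are separate cultures, so their spread, and with it each p-value, may be technical.

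All values are log2 ratios of treated over control after subtraction of the median of each array, and a replicate value is the mean of its 2 dye orientations. Base 2 and the order of the channels are assumed, not stated. The p53 target Ccng1, at 1.39 ± 0.40 (SD, n = 5) on array design 2, was positive with channel 1 as the numerator. With the other channel as numerator, higher would read lower throughout. In whole embryos a change in the number of cells of a type and a change of RNA per cell cannot be told apart. Cd81 and Cd151 were chosen by their treated-over-control ratio in these same arrays, so their ratios are given as a description without a test. Without centring each probe of array design 2 is lower by 0.43, which is enough to turn the sign of most of the smaller rises below.

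Tetraspanins are small proteins that cross the cell membrane 4 times and gather integrins, immunoglobulin-like proteins and proteases into patches of the membrane. Cd81 is found on most cells. With Cd9 it acts in the fusion of egg and sperm. Cd151 binds laminin-receptor integrins tightly and serves in adhesion to basement membranes. Together with Cd63, Cd81 and Cd9 are common markers of extracellular vesicles. Both genes lie on distal mouse chromosome 7, Cd81 between Tspan32 and Tssc4 inside the imprinted domain, and Cd151 between Cracr2b and Polr2l.

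The 250 bases before the annotated start of each gene are shown because both genes lie on one chromosome arm and stood high together. They come from RefSeq on GRCm38.p6, plus strand, from chr7:143052500-143052749 for Cd81 and from chr7:141467112-141467361 for the first of the 2 annotated starts of Cd151. Capitals mark the GC box, GGGCGG on either strand.
Cd81: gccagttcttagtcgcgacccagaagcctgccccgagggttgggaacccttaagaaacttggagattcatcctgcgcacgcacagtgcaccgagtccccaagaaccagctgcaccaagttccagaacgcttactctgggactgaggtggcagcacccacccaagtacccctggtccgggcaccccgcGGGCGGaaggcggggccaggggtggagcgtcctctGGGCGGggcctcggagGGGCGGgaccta
Cd151: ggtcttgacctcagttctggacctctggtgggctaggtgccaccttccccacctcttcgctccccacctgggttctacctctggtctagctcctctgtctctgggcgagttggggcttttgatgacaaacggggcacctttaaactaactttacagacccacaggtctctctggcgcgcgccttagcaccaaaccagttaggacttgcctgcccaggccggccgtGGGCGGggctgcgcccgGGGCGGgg
The Cd81 window holds 3 GC boxes and the Cd151 window 2, and the window at the other Cd151 start holds none. Of 32851 promoter windows of this length, 32.7% hold at least 1. Searched on both strands, CCAAT (in 33.8% of windows) and TATAAA (in 12.4%) are in none of the 3 windows. The p53 half-site, present in 7.13% of windows, has 1 match in the Cd151 window shown, which does not overlap a GC box, and none in the other windows. These matches are letters only.

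Cd81 had replicate values of 1.08, 1.15, 0.94, 0.75 and 0.74 in replicates 1 to 5. Their mean was 0.93 ± 0.19 (SD, n = 5), a 1.91-fold higher level in treated embryos, with single replicates from 1.67-fold to 2.22-fold. Every replicate was far from 0, and replicates 1 to 3 lay above replicates 4 and 5. Only Ccng1 stood higher among the 7599 probes of the design. Within single replicates Cd81 had rank 2, 1, 19, 4 and 48. The quartiles of all probes were −0.07 and 0.13, and 1% lay above 0.49.

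On its 10 slides Cd81 went from 0.24 through a median of 0.78 to 1.68. All 10 slides and all 20 readouts were above 0, with readouts from 0.18 to 1.88. Of all probes, 0.316% were above 0 on 10 slides, and 20.1% in 5 of 5 replicates. Because Cd81 was chosen by these same ratios, the shares are a description and no test of it. Single slides spread much more than replicate values. In replicate 1 the slide with treated embryos in channel 1 had 0.47 and the opposite slide 1.68. Replicate 2 ran the other way, with 1.52 and 0.79. The plain and the B readout of a slide differed by 0.12 to 0.84, with a median of 0.36. With channel 1 alone the mean was 0.72 ± 0.48 (SD, n = 5), rank 209, and with channel 2 alone 1.14 ± 0.38 (SD, n = 5), rank 41.

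Cd151 had replicate values of 0.69, 0.41, 0.56, 0.62 and 0.68. The mean was 0.59 ± 0.11 (SD, n = 5), or 1.51-fold, which put it at rank 42 of 7599. Just 42 probes of the design, 0.553%, stood above 1.5-fold. Its replicate values were closer together than those of Cd81, and replicate 2 was the lowest. Ranks within single replicates were 17, 270, 146, 8 and 56. No replicate of Cd151 reached the lowest of Cd81.

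Across its slides Cd151 had −0.16 at the lowest, 0.62 in the middle and 1.09 at the highest, with 9 of 10 slides and 18 of 20 readouts above 0. The slide below 0 was that of replicate 2 with treated embryos in channel 2. The other slide of that replicate stood at 0.98. Readouts of one slide differed by 0.0074 to 0.30. Both orientations gave nearly the same mean for Cd151, 0.57 ± 0.31 with treated embryos in channel 1 and 0.62 ± 0.48 in channel 2 (SD, n = 5).

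**Figure D1:**
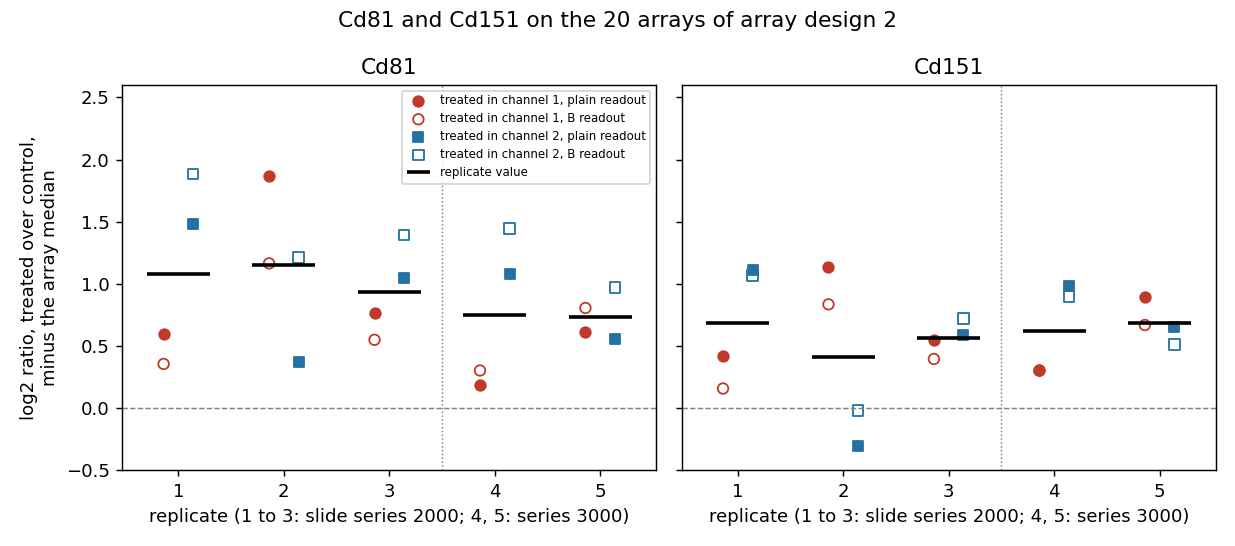
Log2 ratio of treated over control (vertical axis, array median subtracted) for Cd81 and Cd151 by replicate, with 1 point per readout and a black bar for each replicate value. Cd81 bars sit between 0.74 and 1.15 and Cd151 bars between 0.41 and 0.69, while the readouts of one replicate are spread widely.

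The difference of Cd81 from Cd151 was 0.34 ± 0.27 (SD, n = 5), with Cd81 higher in each replicate and on 8 of 10 slides. The gap was 0.74 in replicate 2 and 0.06 in replicate 5. Over the 10 slides the probes had a Pearson correlation of 0.73, and over the 5 replicate values of −0.58. Both probes lie on the same slides, and neither correlation carries a test. Slide values include the difference between the orientations, which replicate values average out. That difference had the same direction for both genes in replicates 1 to 4. Its part in the 0.73 was not tested.

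What the selection did not use is the dye part, the mean of both orientations without turning, which shows how far a spot favours one dye. For Cd81 it was −0.21 ± 0.39 (SD, n = 5), negative in 4 of 5 replicates, and did not pass (limma adjusted p = 0.496). For Cd151 it was −0.03 ± 0.39 (SD, n = 5), negative in 3 of 5 replicates (limma adjusted p = 0.944). No probe of array design 2 passed this test (0%), and 1431 of 7599 had an unadjusted p under 0.05. The spread of the dye part over replicates was larger than its mean for both genes.

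The slides carry numbers of a 2000 and a 3000 series, on array design 2 with replicates 1 to 3 in the first and replicates 4 and 5 in the second. Cd81 averaged 1.06 in the 2000 series and 0.74 in the 3000 series. The difference of −0.31 ± 0.11 (SE) had an unadjusted limma p of 0.00742 and a limma adjusted p of 0.33, and the 3 replicates of the first series were all above the 2 of the second. Cd151 went from 0.55 to 0.65, a difference of 0.10 ± 0.11 (SE, limma adjusted p = 0.819), with overlapping replicates. Among 7599 probes none passed for the series (0%), and 719 had an unadjusted p under 0.05.

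The 10 spots numbered next to Cd81 had means from −0.13 to 0.07, and those next to Cd151 from −0.23 to 0.24.

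Likeness to each gene was measured as the root mean square difference over the 10 slides among 4854 named probes. Nearest to Cd81 was Ckap2, a microtubule-associated protein of the spindle, at a difference of 0.31, against a median of 1.09 over all of them. Its own ratio was 0.74 ± 0.11 (SD, n = 5). Next came Gpx3, the secreted glutathione peroxidase (difference 0.44), Phtf1 (0.44), the imprinted noncoding RNA H19 (0.45) and Cd151 itself (0.46). Correlations of these 5 with Cd81 over the 10 slides were 0.73 to 0.87.

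Nearest to Cd151 were Thyn1 (difference 0.17), Rbm38, an RNA-binding protein and known p53 target (0.21), and Mmp2, a gelatinase of the extracellular matrix (0.23). Laptm4b, a lysosomal membrane protein, and Cdc34, a ubiquitin-conjugating enzyme, both followed at 0.23. The median difference from Cd151 was 0.77. Their ratios went from 0.39 for Laptm4b to 0.61 for Rbm38. All these points share slides and dyes, so the order describes these arrays.

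The other tetraspanins had lower means than both genes, although the highest replicate of a Tspan5 probe (0.67) lay within the replicates of Cd151. There were 18 further probes of 14 genes, and their means ran from −0.27 to 0.35. On array design 2, where 19.8% of probes passed as higher and 8.07% as lower, 3 of 10 probes rose and 2 fell. Both shares are above those of all probes, but 10 probes are too few to read a difference from. Their median was −0.0068 beside 0.02 for all probes.

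Tspan6 rose, with 0.39, 0.30, 0.33, 0.17 and 0.15 in replicates 1 to 5 (mean 0.27 ± 0.11, SD, n = 5, limma adjusted p = 0.000919). It had 0.70 with treated embryos in channel 1 and −0.16 in channel 2, and 6 of its 10 slides were above 0. Cd63, a tetraspanin of late endosomes and lysosomes, rose by 0.22 ± 0.12 (limma adjusted p = 0.00622). Tspan31 rose by 0.15 ± 0.02 with replicates from 0.12 to 0.17 (limma adjusted p = 0.0365). All 3 had the opposite sign without centring, at −0.16, −0.21 and −0.28. Tspan3 fell by 0.19 on the log2 scale (SD 0.11, limma adjusted p = 0.0156) and Tspan15 fell by 0.15 (SD 0.05, limma adjusted p = 0.0307). Each of these 5 probes had one sign in 5 of 5 replicates.

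These calls were weak. None of the 5 passed once a trend with the dye part had been removed (limma adjusted p = 0.234 or more), and Tspan6 then had 0.08. Tspan31 lost its call without replicate 1, 2, 3 or 4 (limma adjusted p from 0.0738 to 0.121), as did Tspan15 (0.073 to 0.0962). Tspan3 lost it without replicate 1, 2 or 3 (0.0523 to 0.108) and Cd63 without replicate 3 (0.0533).

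Cd9, the relative of Cd81 with which it shares partners, had −0.07, −0.04, 0.08, 0.03 and −0.04 (mean −0.0087 ± 0.06, limma adjusted p = 0.915). Both Cd82 probes lay at −0.04 (SD 0.06 and 0.16). Tspan9 had −0.0049 ± 0.13 and Tspan18 0.06 ± 0.10. None of these passed.

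On array design 1 no tetraspanin probe passed among 8, in a fit by limma that called 0.651% of all probes (0.638% higher and 0.013% lower). At an unadjusted p under 0.05 there were 6 of 8, against 33% of all probes, and 3 of 8 were above 0 in 5 of 5 replicates, against 12.9% of all probes. The 2 Cd63 probes there had 0.24 ± 0.07 and 0.23 ± 0.15 (SD, n = 5), close to 0.22 on the other design. Without centring these 2 probes had −0.0032 and −0.011. The first had 0.58 with treated embryos in channel 1 and −0.11 in channel 2, and the second 0.27 and 0.18. The Tspan5 probes differed, with 0.35 ± 0.24 and 0.07 ± 0.17. The higher of them had 0.81 with treated embryos in channel 1 and −0.12 in channel 2. Its dye part of 0.47 passed (limma adjusted p = 0.00738). Tspan14 had 0.10, Tspan8 −0.17, the urothelial Upk1a −0.21 and Tspan32 −0.27. One readout of replicate 4 on that design had lost 786 of 7680 values. Without it, both Cd63 probes, the higher Tspan5 probe and Tspan32 passed (limma adjusted p = 0.0164, 0.0386, 0.0124 and 0.0219), with Tspan32 at −0.27. In that setting 1224 of all 7680 probes passed, 781 as higher and 443 as lower.

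**Figure D2:**
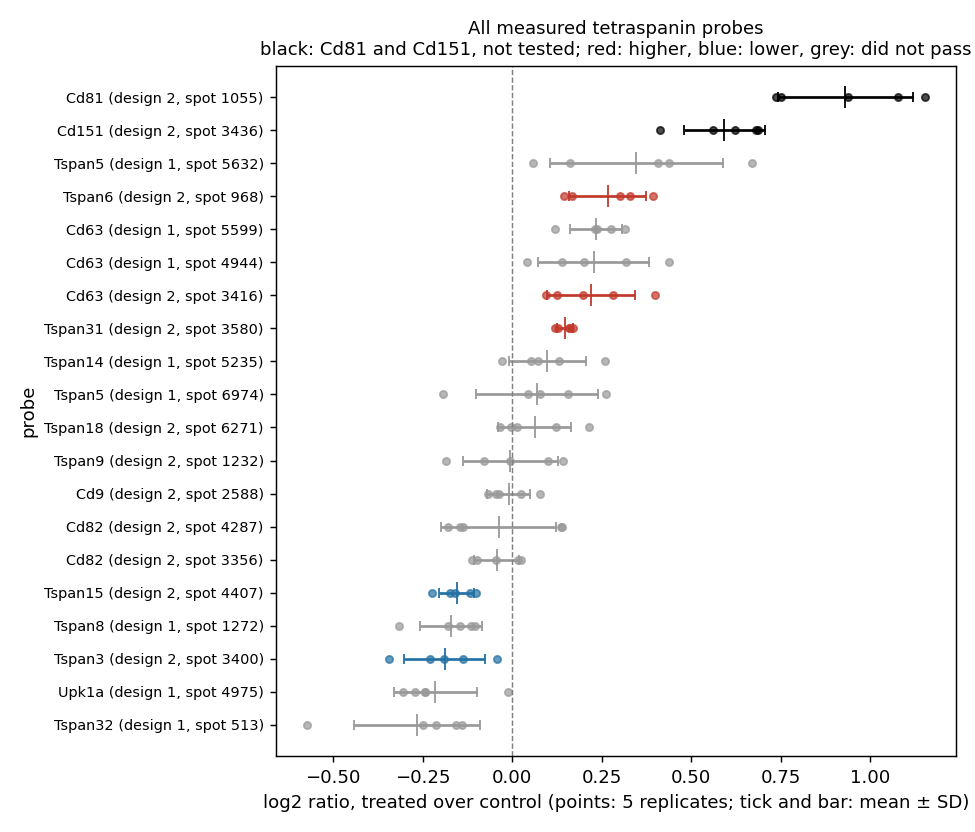
Log2 ratio of treated over control (horizontal axis) for all 20 tetraspanin probes, with 5 replicate points each and the mean ± SD. Cd81 at 0.93 and Cd151 at 0.59 have the highest means, followed by 0.35 for a Tspan5 probe.

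Genes around Cd81 had a wide range of ratios. Of its direct neighbours, Tssc4 had 0.06 ± 0.19 on array design 2 (limma adjusted p = 0.461), and Tspan32 had −0.27 ± 0.18 on array design 1 (limma adjusted p = 0.0535). Farther along the imprinted domain, H19, Igf2, Cdkn1c and Nap1l4 were higher. Of 11 probes of the domain on array design 2, 10 rose, against 19.8% of all probes, and their median was 0.57. On array design 1, 1 of 8 probes of the domain rose, against 0.638% of all probes. The median of these 8 was −0.06, with Cars at −0.19, Kcnq1ot1 at −0.13, and Phlda2 and Dhcr7 both at −0.06. Since 7 of the 10 are probes of H19, they amount to 4 genes.

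H19, a noncoding RNA made from the maternal copy in embryonic tissues, had means from 0.52 to 0.63 on its 7 probes of array design 2 (limma adjusted p from 2.36e-07 to 6.62e-07). On array design 1 it had 0.64 ± 0.30 and passed barely (limma adjusted p = 0.0496), and 4 of 5 leave-outs ended that call (without replicate 1, 2, 3 or 5, 0.0647 to 0.117). Igf2, the fetal growth factor beside it, rose by 0.48 ± 0.08 on array design 2 (limma adjusted p = 1.13e-06) and had 0.44 ± 0.25 on array design 1 (limma adjusted p = 0.0516). Without the failing readout of array design 1 both passed there (limma adjusted p = 0.00117 for H19 and 0.00506 for Igf2). In that setting 781 of all 7680 probes passed as higher. Cdkn1c, a cell cycle inhibitor, rose by 0.37 ± 0.20 (SD, n = 5, limma adjusted p = 0.000148), and Nap1l4, a histone chaperone, by 0.16 ± 0.08 (limma adjusted p = 0.0265). Without replicate 1, 3 or 4 Nap1l4 lost its call (0.0753 to 0.106). After removal of the dye trend H19 and Igf2 still passed, at 0.27 to 0.46 and 0.26, and Cdkn1c (0.19, limma adjusted p = 0.0962) and Nap1l4 (0.07) did not. Without centring no gene of the domain passed as higher, and Cdkn1c (−0.06) and Nap1l4 (−0.26) turned.

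**Figure D3:**
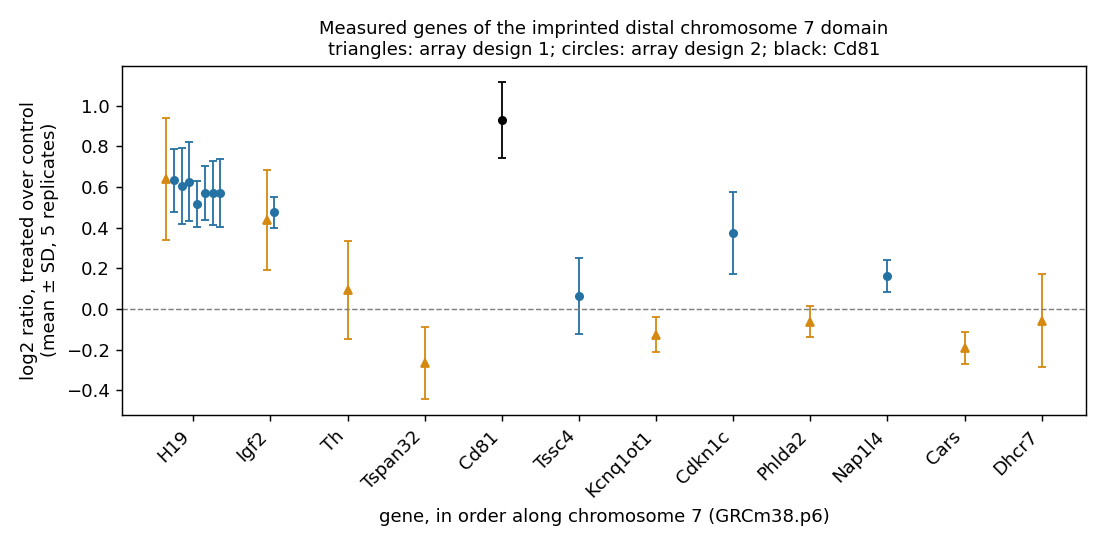
Log2 ratio of treated over control (vertical axis, mean ± SD of 5 replicates) for each measured probe of the imprinted domain, genes in order along chromosome 7. Cd81 is highest at 0.93, the H19 probes lie between 0.52 and 0.64, and the genes on either side of Cd81 have −0.27 and 0.06.

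The genes that flank Cd151 directly were not measured. Of a wider set of genes around it, 5 of 10 probes, of 3 genes, rose on array design 2, against 19.8% of all probes, and none fell. Of these 5, 3 are probes of Ctsd, the measured gene of the set that lies next to H19 of the imprinted domain. The median of the 10 probes was 0.18. None of 8 probes passed on array design 1, where 0.651% of all probes did. Without the failing readout the Ctsd probe of array design 1 passed, at 0.34 (limma adjusted p = 0.00449), when 781 of all 7680 probes passed as higher. Ctsd, the lysosomal protease cathepsin D, rose on 3 probes (0.45 ± 0.11, 0.27 ± 0.09 and 0.26 ± 0.10, SD, n = 5), with limma adjusted p-values of 3.44e-06, 0.000655 and 0.00128. The probe with 0.26 did not pass after removal of the dye trend (limma adjusted p = 0.0712), and without centring none of them passed, with 0.02, −0.16 and −0.17. The ribosomal protein gene Rplp2 rose by 0.24 ± 0.09 (limma adjusted p = 0.00204), and Pidd1, a p53-induced death domain protein, by 0.25 ± 0.14 (limma adjusted p = 0.00282). With treated embryos in channel 2 alone Pidd1 stood at −0.45, with the largest dye part of these genes, 0.70. Without centring Rplp2 had −0.19 and Pidd1 −0.18, and after removal of the dye trend neither passed (limma adjusted p = 0.768 and 0.306).

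Of 4 integrin probes on array design 2, the main partners of Cd151, 1 rose, against 19.8% of all probes. None of 4 passed on array design 1, where 0.651% of all probes did. Itgb1, the beta subunit of most laminin receptors, rose by 0.15 ± 0.10 (SD, n = 5, limma adjusted p = 0.0405), had −0.28 without centring, and lost the call without replicate 1, 2, 3 or 4 (limma adjusted p from 0.068 to 0.159). Named here for their known binding of Cd151 and not by their values, Itga3 had 0.07 and Itga6 0.10, which did not pass.

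Laminins and basement membrane proteins rose on 2 of 7 probes of array design 2 and on none of 11 on array design 1, with medians of 0.11 and 0.01. The share on array design 2 is near the 19.8% of all probes that were higher. On array design 1, 0.638% of all probes were higher. Lamc1 rose on 1 of its 2 probes (0.25 ± 0.08, SD, n = 5, limma adjusted p = 0.00116), while its other probe there had 0.05. Lamb1 rose on 1 probe (0.19 ± 0.07, limma adjusted p = 0.0097) and had 0.11 on another, and its probes of array design 1 went the other way, at −0.25 ± 0.08 and −0.18 ± 0.06, without passing. Without the failing readout the first of these passed as lower, at −0.26 (limma adjusted p = 0.0137), when 443 of all 7680 probes passed as lower. Without centring Lamc1 had −0.18 and Lamb1 −0.24, and after removal of the dye trend neither passed (limma adjusted p = 0.248 and 0.243).

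Other membrane partners rose on 4 and fell on 1 of 19 probes of array design 2, a share of rises near the 19.8% of all probes. None of 19 passed on array design 1, where 0.651% of all probes did. Ifitm2, an interferon-induced membrane protein of the family that binds Cd81, rose on both its probes (0.33 ± 0.07 and 0.31 ± 0.15, SD, n = 5, limma adjusted p = 6.83e-05 and 0.000425). Ifitm3 rose by 0.19 ± 0.06 (limma adjusted p = 0.0102), with a limma adjusted p of 0.0572 without replicate 3. Ezr, the actin linker ezrin, rose on 1 of 2 probes (0.24 ± 0.09, limma adjusted p = 0.00244), with 0.07 on the other. On array design 1, 2 of its 3 probes passed without the failing readout, at 0.24 and 0.21 (limma adjusted p = 0.0313 and 0.0445). In that setting 781 of all 7680 probes passed as higher. The adhesion receptor Adgrg1, which binds Cd81, fell by 0.18 on the log2 scale (limma adjusted p = 0.0186), and this call ended without replicate 2 or 3 (0.062 and 0.0784). After removal of the dye trend only the Ifitm2 probe with 0.31 passed, and without centring the rises turned, to −0.10 and −0.12 for Ifitm2, −0.24 for Ifitm3 and −0.19 for Ezr.

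Genes of extracellular vesicles rose on 5 of 19 probes of array design 2 and on none of 22 on array design 1, with medians of 0.06 on both. The share on array design 2 is close to the 19.8% of all its probes, and on array design 1 0.638% of all probes were higher. Tsg101, of the sorting complex that buds vesicles, rose by 0.34 ± 0.11 (SD, n = 5, limma adjusted p = 7.34e-05). The late endosomal GTPase Rab7 rose by 0.29 ± 0.12 (limma adjusted p = 0.000514) and the lysosomal membrane protein Lamp2 by 0.27 ± 0.13 on 1 of 2 probes (limma adjusted p = 0.0013). Rab11a, of recycling endosomes, passed with 0.21 ± 0.16 on 1 of 2 probes (limma adjusted p = 0.0108), and the call ended without replicate 1 (limma adjusted p = 0.0794). The last of the 5 was Anxa2 at 0.15, named after its value was seen. Of the 4 others only Lamp2 passed after removal of the dye trend, and without centring they had −0.09, −0.14, −0.16 and −0.21.

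Among palmitoyltransferases, the enzymes that attach the lipid anchors of tetraspanins, 1 of 10 probes rose on array design 2, against 19.8% of all probes. None of 6 passed on array design 1, where 0.651% of all probes did. The probe that rose was Zdhhc14 at 0.24 ± 0.19 (SD for n = 5, adjusted p by limma = 0.00747). It stood at −0.30 with treated embryos in channel 2 alone and −0.19 without centring, and did not pass without replicate 1 (limma adjusted p = 0.0803). Zdhhc2, the enzyme best known for tetraspanins and named for that, had −0.10.

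Both genes kept their sign in each way of processing that was tried, while their size depended on the centring. The uncentred median of all probes on array design 2 was −0.41, and without centring Cd81 had 0.50 ± 0.32 and Cd151 0.16 ± 0.17 (SD, n = 5), each above 0 in 5 of 5 replicates. Ranks do not change with this shift. After removal of the dye trend Cd81 had 0.77 ± 0.23 at rank 2 and Cd151 0.48 ± 0.03 at rank 9.

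**Figure D4:**
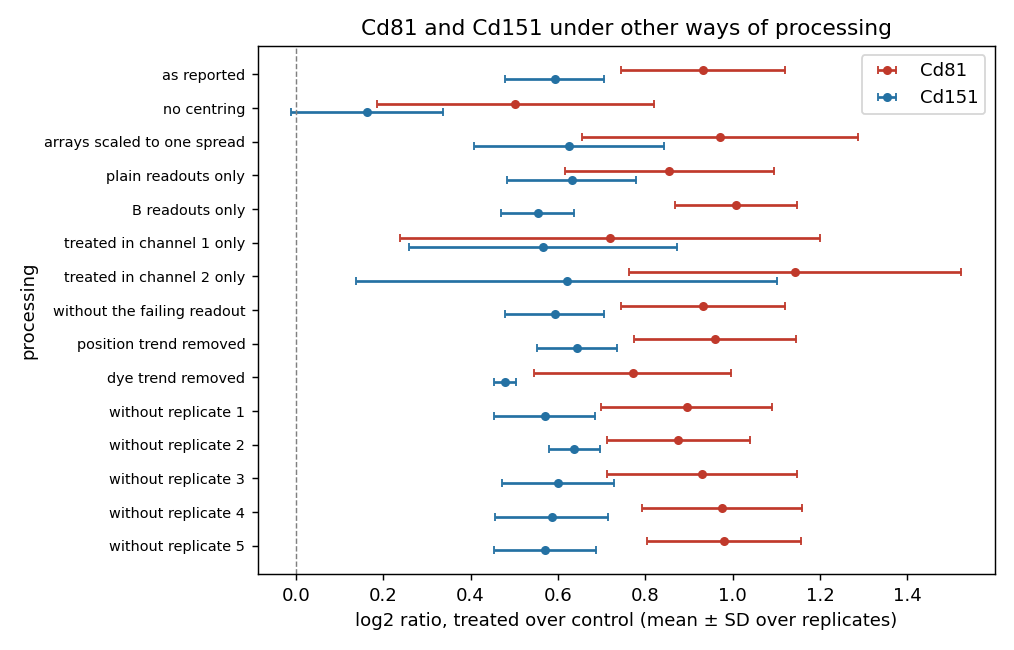
Mean ± SD over replicates of the log2 ratio (horizontal axis) of Cd81 and Cd151 under each way of processing. Cd81 stays between 0.50 and 1.14 and Cd151 between 0.16 and 0.64, lowest without centring.

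Over all probes, 50 of 7680 passed on array design 1 and 2114 of 7599 on array design 2, where 27.8% were called. Among cell type markers, erythroid genes rose on 7 of 9 probes of array design 2, against 19.8% of all probes, with a median of 0.58 and Hbb-y probes at 0.58 to 0.63. All 7 are globin probes of 3 genes, Hba-x, Hbb-b1 and Hbb-y. The erythroid markers that are not globins did not pass, with Alas2 at −0.0018, Slc4a1 at 0.11 and, on array design 1, Gata1 at −0.06. At these sizes the Hbb-y probes stay above 0 without centring, while the Hbb-b1 probe at 0.29 does not. The endothelial marker Cd34 rose by 0.26 ± 0.13 (SD, n = 5, limma adjusted p = 0.00167) and turns below 0 without centring. The endothelial markers of array design 1 did not pass, with Cdh5 at 0.22 and Esam at −0.03. The other markers measured, of visceral endoderm, trophoblast, neural cells and leukocytes, had none past the threshold on either design. The leukocyte markers measured were Fcer1g, Laptm5 and Lyz2, at −0.04 to 0.03. Heart and muscle markers were not measured. A part of these cell types in the ratios of Cd81 and Cd151 was not tested.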

How the data were processed

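The deposited values were taken as log2 ratios of the channels of each 2-colour array, 1 table per array design. Per the labels, titles give replicate, array design, slide and readout, and the source names give the channel of the treated embryos. The labels used here name no scanner, background correction or normalization. Base 2 was inferred from the tail of a failing readout (mean excess below −3 of 1.46 ± 0.08, SE, against 1.44 for base 2, 1.0 for natural and 0.434 for base 10 logarithms). Below −4 the mean excess was 1.53 ± 0.12 and below −5 it was 1.74 ± 0.17 (SE), so base 2 remains an assumption. Probes were named through the platform annotation, checked against the GRCm38.p6 gene table, which matched 4712 of 4749 and 4884 of 4935 probes with 1 symbol. Spots with one accession were averaged, leaving 7680 and 7599 probes.

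Each array was centred on its median and given the sign of treated over control. The readouts of a slide were averaged, and both orientations gave 1 value per replicate. A two-sided test against 0 was run in limma 3.58.1 (R 4.3.3) on probes with 3 or more replicates, within each design, with Benjamini-Hochberg adjustment over all its probes and a threshold of 0.05. The dye part and the slide series were tested alike. The dye trend was fitted with mgcv 1.9.3 on 3 principal components of the dye part. Simulated data with known changes were run through the same code. Their dye offset was the same in every replicate, so they do not cover a dye part that varies between replicates. The genes, lists and settings were chosen with earlier results of these data known. Named are all tetraspanins, up to 4 called genes of each list by lowest p (or the 1 gene of lowest p), and the 5 nearest probes to each gene. The number of replicates, 5 per design and not shown by the labels to be separate cultures, limits the precision.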

Additional observations from a re-analysis of the deposited data

Results flagged for a closer look

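In 4 of 65 sets of replicate values examined, 1 replicate lay far from the other 4. Chance gives about 1 in 20 such sets. Tspan32 on array design 1 had −0.572 in replicate 1 and −0.25 to −0.14 in the others. Upk1a on that design had −0.0107 in replicate 1 and −0.30 to −0.24 in the others. The Ctsd probe of array design 1 had 1.55 in replicate 4, which holds the failing readout, and 0.22 to 0.44 elsewhere. Rab11a on array design 2 had −0.0659 in replicate 2 and 0.23 to 0.32 in the others, so its rise does not hold in every replicate. Neither Cd81 nor Cd151 had such a replicate.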

How the results depend on the processing

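All results were recomputed under 21 other settings, or the part of them that applies. No paired analysis was possible because all arrays form 1 group. Cd81 moved by over 1 SD without centring (0.50) and with treated embryos in channel 1 alone (0.72) or channel 2 alone (1.14), and Cd151 without centring (0.16) and with the dye trend removed (0.48). Leaving out 1 replicate gave 0.88 to 0.98 for Cd81 and 0.57 to 0.64 for Cd151. The dye part of Cd151, close to 0, turned to 0.0084 without centring and 0.027 with plain readouts, and its series difference to −0.13 without centring. Leaving out 1 replicate gave −0.18 to 0.066 for that dye part, positive without replicate 1 (0.066) or 4 (0.04). None of these dye and series values passed in any setting.

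Probes called on array design 1 numbered 4615 without centring, 345 with scaled arrays, 501 with plain and 3 with B readouts, 2324 and 1108 with treated embryos in channel 1 or 2 alone, 1224 without the failing readout, 890 by single arrays with the replicate block, 12 with a series term, 5 at an adjusted p of 0.01, and 7 to 82 without 1 replicate. On array design 2 they numbered 6655, 21 higher and 6634 lower, without centring (main split 1501 higher and 613 lower), 1331 with scaled arrays (1151 and 180), 1076 with plain readouts (972 and 104), 1190 and 117 with channel 1 or 2 alone, 382 with the dye trend removed, 869 by the ordinary one-sample test, 1043 at 0.01, and 1013 (without replicate 1) to 2637. On array design 1 the main split of 49 higher and 1 lower became 19 and 4596 without centring, 10 and 58 by the ordinary test, 1219 and 1105 with channel 1 alone, 318 and 790 with channel 2 alone, 781 and 443 without the failing readout, 684 and 206 with the replicate block, 440 and 61 with plain readouts, and 43 and 17 with the dye trend removed.

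Other tetraspanin probes called higher were 0 without centring, with channel 2 alone and with the dye trend removed, 6 without the failing readout and with the replicate block, and 1 to 3 without 1 replicate. Those called lower were 12 without centring, 1 with scaled arrays, plain readouts or the ordinary test, 0 with channel 2 alone, the dye trend removed or at 0.01, and 0 to 2 without 1 replicate. Of 157 probes of the partner and neighbour lists on both designs, 29 were higher and 1 lower. Of all probes, 19.8% were higher on array design 2 and 0.638% on array design 1. On array design 1 only the H19 probe was among the 29, and all the others were on array design 2. The count of 29 of 157 pools both designs, so it cannot be set against either share. All H19 probes of both designs are among the 29. Higher were 0 without centring, 6 with channel 2 alone, 14 with the dye trend removed and 19 by the ordinary test. Lower were 100 without centring, 6 and 9 with channel 1 or 2 alone, 2 without the failing readout, 4 with the replicate block, 0 with scaled arrays, B readouts, the dye trend removed or at 0.01, and 0 to 1 without 1 replicate.

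Of the 34 named probes that passed, the dye trend removal kept 13 calls, channel 2 alone 3, and the removal of a position trend 32. Without centring the sign turned for Tspan6 (−0.16), Cd63 (−0.21), Tspan31 (−0.28), Itgb1 (−0.28), Nap1l4 (−0.26), Cdkn1c (−0.057), Rab11a (−0.21), Rplp2 (−0.19), Zdhhc14 (−0.19), Tsg101 (−0.085), Lamp2 (−0.16), Ifitm2 (−0.10 and −0.12), Lamc1 (−0.18), Rab7 (−0.14), Ezr (−0.19), Lamb1 (−0.24), Pidd1 (−0.18), Ctsd (−0.16 and −0.17) and Ifitm3 (−0.24), and among probes not called before for Rab11a (−0.22) and Tspan5 (−0.17) on array design 1 and Lamc1 (−0.38), Ezr (−0.36), Lamp2 (−0.32), Lamb1 (−0.32) and Tspan18 (−0.37) on array design 2. With channel 2 alone it turned for Tspan6 (−0.16), Adgrg1 (0.067), Zdhhc14 (−0.30), Pidd1 (−0.45) and an Ezr probe of array design 1 (0.32). A further 56 sign changes were of values that passed in neither setting.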
